A study of Mus musculus with 5 samples.

Results

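The crystallins and the fiber cell genes Mip and Bfsp2 were followed through RNA-seq of the iridocorneal region, the ring of tissue between iris and cornea through which aqueous humor drains. The 10 genes (Cryaa, Cryab, Cryba1, Cryba4, Crybb1, Crybb2, Crybb3, Crygs, Mip and Bfsp2) were taken by symbol from a table of 56941 gene identifiers, and all 10 were in it. Cryab, which is expressed in many tissues, was kept apart from the 9 lens-restricted members, whose main site is the lens, although several are also transcribed at low levels in retina. RNA came from 3 pools of DBA/2J and 2 pools of Gpnmb+ mice, a comparison made to find what changes in this tissue in a glaucoma model. DBA/2J mice carry a loss-of-function allele of Gpnmb together with the Tyrp1 b allele and develop pigmentary glaucoma. Gpnmb+ mice are the DBA/2J substrain in which Gpnmb is functional, and they share the Tyrp1 b allele. All mice were untreated, 12 months old per the labels and of both sexes, and each pool was described as 3 mice, although the labels of both Gpnmb+ libraries name 2 animals.

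Counts on genes summed to between 43900661 and 49837758 per pool. Gpnmb itself ranged from 1946 to 2234 counts over DBA/2J pools and from 110568 to 129659 over Gpnmb+ pools. The Y-linked Ddx3y ranged from 1567 to 4168 counts over DBA/2J pools and had 0 and 4 with Gpnmb+, so the Gpnmb+ libraries do not match a pool of both sexes. Xist, the RNA of the inactive X, had 596, 0 and 2417 counts in the DBA/2J libraries and 7843 and 9152 in those of Gpnmb+, so DBA/2J pool 2 does not match one either. Sex therefore varied among pools and cannot be fully told apart from genotype. The tissue label was checked with Myoc, a secreted protein typical of the trabecular meshwork. It was counted in every pool, 7106 to 13989 times in DBA/2J and 22068 to 26147 times in Gpnmb+, so its level was not equal between genotypes. RNA of neighboring tissues was present as well, and its levels are given beside the member values they accompany.

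The lens is built of fiber cells that lose their nuclei and organelles and fill with crystallins, the soluble proteins that give it its refractive index. Alpha-crystallins are small heat shock proteins that keep other proteins from aggregating, and beta- and gamma-crystallins form a second family of compact structural proteins. Mip is the water channel of fiber cell membranes, and Bfsp2 pairs with Bfsp1 in the beaded filament, the intermediate filament of fiber cells. Transcription of crystallins in the lens is driven by Pax6, Sox and large Maf proteins, of which the last bind sites that hold a core written TGCTGA.

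Cryab was an abundant transcript of this tissue, Bfsp2 a moderate one and the other 8 members rare or barely detected. In CPM (counts scaled to the effective library size) per kilobase of the canonical transcript, Cryab averaged 120 over the 5 pools (lowest 96.3, highest 133) and stood at percentile 97.9 of the 19613 tested genes with a length. Bfsp2 followed at 8.15 (6.46 to 9.52, percentile 65.1). All remaining members lay below the median of tested genes, 4.03, from Crybb2 at 1.80, Cryaa at 1.03 and Cryba1 at 0.689 through Crygs at 0.384, Crybb3 at 0.248 and Cryba4 at 0.193 to Crybb1 at 0.111. Mip closed the order at 0.0126, percentile 0.0561. On this scale Cryab was 14.7-fold above Bfsp2 and Bfsp2 4.54-fold above Crybb2, with no overlap between pools in either step. From Crybb2 downward the ranges of every pair of neighbors overlapped. Read within each pool, Crybb2 was above Cryaa and Crybb1 above Mip in 5 of 5 pools, Cryaa above Cryba1 and Cryba1 above Crygs in 4 of 5, and the neighbors from Crygs to Crybb1 changed places between pools. Taking all annotated exons as the length left 8 of the 10 members in the same place. It changed the size of the steps, with Cryab at 46.1, Bfsp2 at 7.98 and Crybb2 at 0.653.

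**Figure D1:**
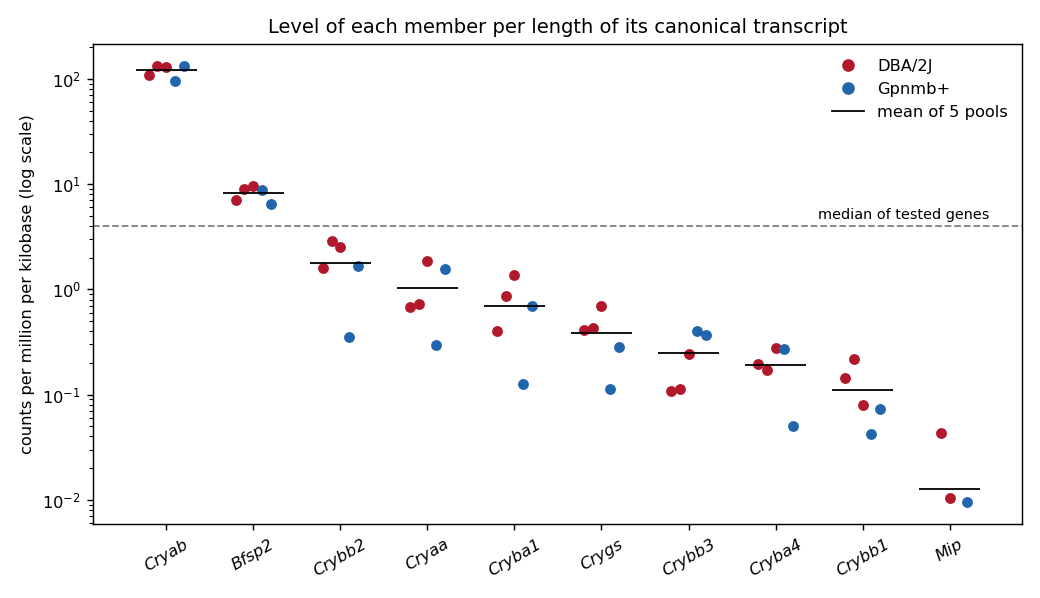
Level of each member in CPM per kilobase of its canonical transcript (log scale), with 1 point per pool (red DBA/2J, blue Gpnmb+), a bar at the mean of the 5 pools and a dashed line at the median of tested genes. Cryab and Bfsp2 lie above that median in every pool and the other 8 members below it, and the 2 pools in which Mip had 0 counts are not drawn.

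The windows of 250 bases before the RefSeq start of Bfsp2, Crybb2, Cryaa, Cryba1, Crybb1 and Mip are shown so that the sequences through which lens factors can act may be compared. The letters come from RefSeq (table built on GRCm38.p6) and were matched without mismatch to GRCm39, where they lie at chr9:103326376-103326625 on the minus strand for Bfsp2, chr5:113217984-113218233 on the minus strand for Crybb2, chr17:31896655-31896904 on the plus strand for Cryaa, chr11:77616120-77616369 on the minus strand for Cryba1, chr5:112403436-112403685 on the plus strand for Crybb1 and chr10:128061429-128061678 on the plus strand for Mip. Each is written 5′ to 3′ in the direction of transcription, with capitals at every match, on either strand, to the Maf core TGCTGA, the Sox core ACAAT, the TATA core TATAAA or the heat shock element core GAANNTTC.
Bfsp2: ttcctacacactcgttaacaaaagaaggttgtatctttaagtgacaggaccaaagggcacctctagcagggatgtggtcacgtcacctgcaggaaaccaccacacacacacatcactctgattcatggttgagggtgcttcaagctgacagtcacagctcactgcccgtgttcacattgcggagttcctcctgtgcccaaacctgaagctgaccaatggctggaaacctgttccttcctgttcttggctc
Crybb2: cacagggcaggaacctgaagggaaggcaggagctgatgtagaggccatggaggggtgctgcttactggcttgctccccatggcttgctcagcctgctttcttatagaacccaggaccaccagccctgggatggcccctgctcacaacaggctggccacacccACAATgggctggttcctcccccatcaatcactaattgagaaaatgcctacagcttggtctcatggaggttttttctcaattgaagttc
Cryaa: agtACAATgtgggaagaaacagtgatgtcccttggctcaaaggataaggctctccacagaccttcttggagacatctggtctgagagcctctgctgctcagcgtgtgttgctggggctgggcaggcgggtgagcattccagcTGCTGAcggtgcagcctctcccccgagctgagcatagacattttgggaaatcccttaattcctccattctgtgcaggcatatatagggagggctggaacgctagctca
Cryba1: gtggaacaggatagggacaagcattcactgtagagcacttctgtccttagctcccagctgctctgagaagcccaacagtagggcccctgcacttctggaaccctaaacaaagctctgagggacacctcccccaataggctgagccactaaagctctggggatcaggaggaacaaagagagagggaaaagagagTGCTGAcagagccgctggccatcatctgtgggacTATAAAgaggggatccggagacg
Crybb1: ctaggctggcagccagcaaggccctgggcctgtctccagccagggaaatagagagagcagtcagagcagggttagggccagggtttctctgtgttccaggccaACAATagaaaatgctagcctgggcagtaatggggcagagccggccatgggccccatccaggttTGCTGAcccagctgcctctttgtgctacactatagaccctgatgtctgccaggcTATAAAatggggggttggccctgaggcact
Mip: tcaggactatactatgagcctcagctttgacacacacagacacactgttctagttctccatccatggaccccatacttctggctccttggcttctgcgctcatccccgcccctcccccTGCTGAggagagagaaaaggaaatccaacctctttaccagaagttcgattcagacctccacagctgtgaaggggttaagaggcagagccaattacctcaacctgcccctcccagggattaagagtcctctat
The Maf core began 108 bases before the start in Cryaa, 57 in Cryba1, 84 in Crybb1 and 132 in Mip. It was present in 7 of the 9 member windows that the RefSeq table held, against 16.1% of 32841 windows of the same length. Bfsp2 and Crybb2 were those without it. The windows of Bfsp2, Crybb1 and Cryba4 lie within the annotated span of their own gene, which for Bfsp2 is chr9:103302120-103357619. Those of Cryaa and Crygs lie partly within that span of their gene, and that of Cryba1 meets it at its last base. The RefSeq start used for each of these genes is thus not the outermost annotated start, and bases before other starts were not searched. The Sox core was present in 4 of 9, against 27.7%, and the TATA core in 3 of 9 (Cryba1, Crybb1 and Crygs), against 12.4%. The heat shock element core was present in 0 of 9, against 6.7%. These are counts of letters and were not tested. Cryab had no window in the table.

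Cryab (chr9:50651859-50668567 of GRCm39, plus strand) was among the abundant transcripts of the tissue and did not differ detectably between genotypes. Pools 1 to 3 of DBA/2J gave 8120, 9656 and 9849 counts, and pools 1 and 2 of Gpnmb+ gave 8258 and 10957, the order used for every gene here. Normalized, this was 209 ± 23.3 CPM (SD, n = 3) for DBA/2J against 193 ± 43.3 (SD, n = 2) for Gpnmb+. The lowest and one of the highest values both belonged to Gpnmb+ pools, so the groups overlapped. The log2 fold change, DBA/2J over Gpnmb+, was 0.12 (standard error 0.17, 95% interval -0.29 to 0.52, edgeR quasi-likelihood test, Benjamini-Hochberg adjusted p = 0.787), which limits the ratio to between 0.818 and 1.43. Without Gpnmb+ pool 1 the estimate was -0.10.

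The relatives of Cryab among the small heat shock genes were read for comparison. Of 7 listed, 6 were tested and 0 were called by edgeR, with 4 estimates above 0 and 2 below. By level per kilobase, Cryab (120) lay above Hspb1 (69.7) and Hspb8 (53.1), chaperones of many tissues, and above Hspb6 (6.08), which is typical of muscle. Hspb2 lies within the annotated span of Cryab on chromosome 9, on the opposite strand, over 1481 bases. It was counted 156, 169 and 171 times in DBA/2J against 166 and 123 times in Gpnmb+, where log2 fold change was 0.38 (adjusted p = 0.419). The protein-coding gene 2310030G06Rik also overlaps Cryab on the opposite strand, over 6039 bases, and had 500 to 648 counts per pool. The strand used in counting was not stated, so reads in bases shared with Cryab could not be assigned to 1 gene here.

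Cryaa, the alpha-crystallin of the lens itself (chr17:31896781-31900707, plus strand), was a rare transcript and its highest pools came from both genotypes. It was counted 38, 39 and 105 times in DBA/2J against 19 and 96 times in Gpnmb+. DBA/2J pool 3 and Gpnmb+ pool 2 were high and Gpnmb+ pool 1 was low. The mean was 1.37 ± 0.850 CPM (SD, n = 3) for DBA/2J against 1.17 ± 1.12 (SD, n = 2) for Gpnmb+, and log2 fold change was 0.23 with a 95% interval from -1.64 to 2.11 (adjusted p = 0.913, edgeR). An interval of this width allows ratios from 0.322 to 4.30. Leaving out single pools moved the estimate between -0.51, without Gpnmb+ pool 1, and 1.87, without Gpnmb+ pool 2, and it was also below 0 without DBA/2J pool 3 (-0.40).

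Among the acidic beta-crystallins, Cryba1 and Cryba4 showed unlike patterns. Cryba1 (chr11:77609441-77616120, minus strand) was counted 14, 29 and 48 times in DBA/2J against 5 and 27 times in Gpnmb+, and the groups overlapped. Its log2 fold change of 1.08 had a standard error of 0.80 (adjusted p = 0.564, edgeR). Without Gpnmb+ pool 2 the estimate was 2.77 and without Gpnmb+ pool 1 it was 0.32. Cryba1 lies within Nufip2, which is transcribed from the other strand and had 2853 to 3605 counts, so some of the few Cryba1 reads are uncertain in origin. Cryba4 (chr5:112394359-112402226, minus strand) was counted 7, 6 and 10 times in DBA/2J against 11 and 2 times in Gpnmb+, and once scaled 1 Gpnmb+ pool lay among the DBA/2J pools and 1 below them. The log2 estimate of 0.42 (standard error 0.73, edgeR adjusted p = 0.827) was smaller than its error and turned to -0.31 without Gpnmb+ pool 2.

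The basic beta-crystallin genes Crybb1, Crybb2 and Crybb3 lie with Cryba4 near one another on chromosome 5. Crybb2, the beta-crystallin of highest mean level (chr5:113206124-113217983, minus strand), was counted 52, 90 and 82 times in DBA/2J against 13 and 59 times in Gpnmb+. One DBA/2J pool lay below the higher Gpnmb+ pool once scaled, at 1.17 against 1.21 CPM. The mean was 1.70 ± 0.478 CPM (SD, n = 3) for DBA/2J against 0.731 ± 0.672 (SD, n = 2) for Gpnmb+, with a log2 fold change of 1.22 (95% interval -0.34 to 2.78, adjusted p = 0.414, edgeR). Without Gpnmb+ pool 1 it was 0.50, and without Gpnmb+ pool 2 it was 2.72.

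Crybb1 and Crybb3 had groups that did not overlap, in opposite directions, at counts close to the limit of detection. Crybb1 (chr5:112400811-112417965, plus strand) was counted 9, 13 and 5 times in DBA/2J against 3 and 5 times in Gpnmb+. The groups touched without overlapping, since the lowest DBA/2J pool had 0.112 CPM and the higher Gpnmb+ pool 0.102. The estimate on the log2 scale was 1.32 (standard error 0.66, edgeR adjusted p = 0.390), and Crybb1 shares 1416 bases with Cryba4 on the opposite strand. Crybb3 (chr5:113223705-113229450, minus strand) was counted 4, 4 and 9 times in DBA/2J against 17 and 15 times in Gpnmb+, so every DBA/2J pool was below both Gpnmb+ pools. Its log2 fold change was -1.30 (95% interval -2.54 to -0.06, unadjusted p = 0.0426, adjusted p = 0.295, edgeR), the single negative estimate among the members tested. It stayed below 0 with each pool left out in turn, between -1.78 and -1.10.

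Crygs, a gamma-crystallin of the adult lens (chr16:22623953-22630327, minus strand), was counted 16, 16 and 27 times in DBA/2J against 5 and 12 times in Gpnmb+. All DBA/2J pools were above both Gpnmb+ pools, at 0.446 ± 0.138 CPM (SD, n = 3) against 0.172 ± 0.104 (SD, n = 2). The log2 fold change was 1.37 (95% interval 0.05 to 2.68, unadjusted p = 0.0441, adjusted p = 0.299, edgeR) and ran from 0.86 to 2.15 with single pools left out. It did not pass the threshold after adjustment.

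The fiber cell genes Mip and Bfsp2 lay at opposite ends of the lens-restricted members. Mip (chr10:128061700-128067681, plus strand) was counted 0, 4 and 1 times in DBA/2J against 0 and 1 times in Gpnmb+, too few to test. A count of 0 allows up to 0.0658 CPM in DBA/2J pool 1 and 0.0602 in Gpnmb+ pool 1, by a limit of 3 of all counts that covers counting error only. Bfsp2 (chr9:103302120-103357619, minus strand) was counted 527, 638 and 707 times in DBA/2J against 737 and 526 times in Gpnmb+. The Gpnmb+ pools held the lowest and the middle of the 5 values, 10.8 and 14.5 CPM, beside a DBA/2J mean of 14.2 ± 2.08 (SD, n = 3). The log2 fold change was 0.17 (standard error 0.19, 95% interval -0.30 to 0.63, adjusted p = 0.727, edgeR), and without Gpnmb+ pool 2 it was -0.033. Its partner Bfsp1 was counted 146, 70 and 89 times in DBA/2J against 122 and 75 times in Gpnmb+, a level per kilobase of 0.915 against 8.15 for Bfsp2.

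**Figure D2:**
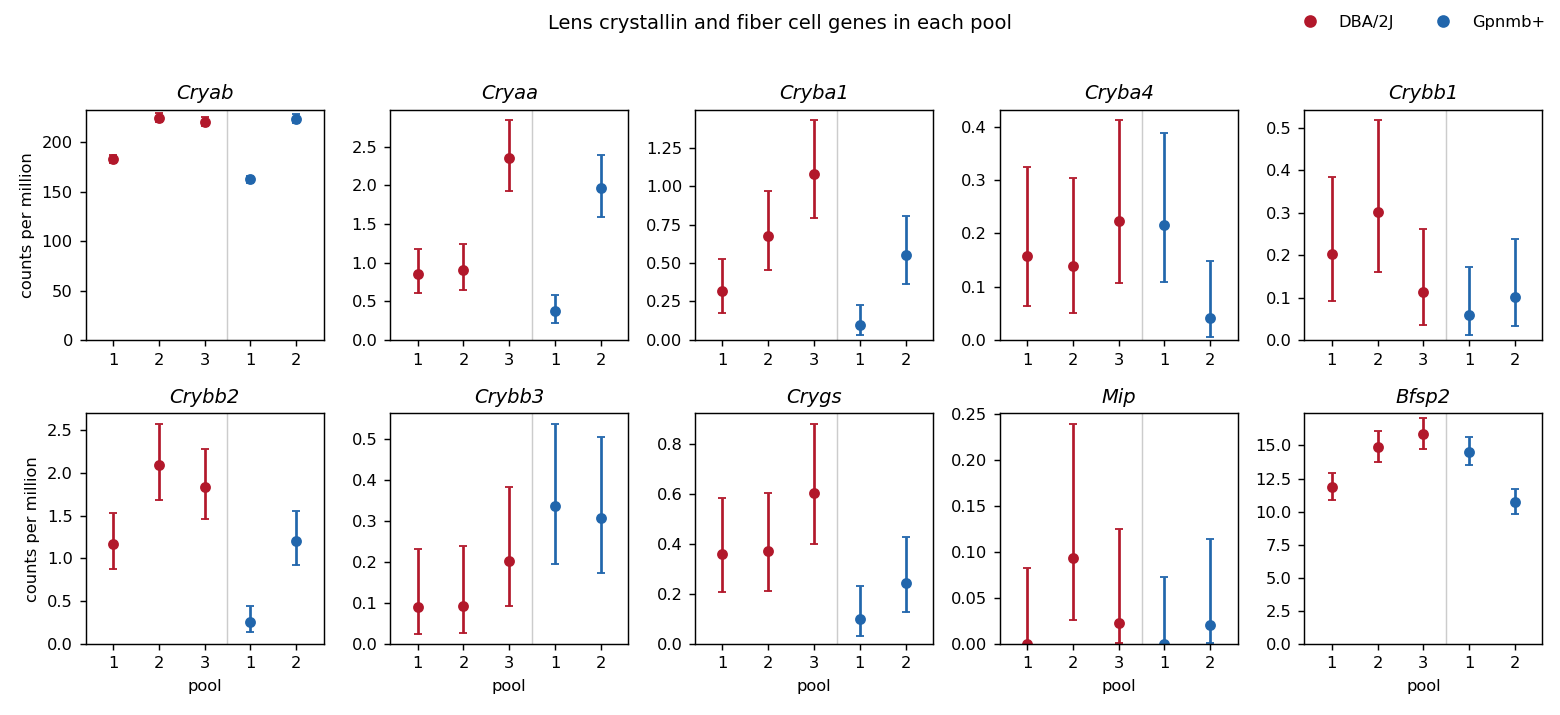
CPM of each member in the 3 DBA/2J pools (red) and the 2 Gpnmb+ pools (blue), each panel with its own axis from 0. Points are single pools and bars are exact 95% Poisson intervals, which cover counting error only. Gpnmb+ pool 1 is the lowest of the 5 pools for Cryab, Cryaa, Cryba1, Crybb1, Crybb2 and Crygs and the highest for Crybb3.

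Over all members, 0 of the 9 tested were called between genotypes by edgeR, against 0.796% over the 19713 tested genes. Before adjustment, 2 members passed a p of 0.05 together with a 1.5-fold difference (Crybb3 and Crygs), against 8.67% of tested genes. DESeq2, which called 5.21% of its genes, called 0 of the 6 members to which it gave an adjusted p, and gave none to Cryba4, Crybb1 and Crybb3. Limma-voom, which called 0.964%, called 0 of 9. Of the 8 lens-restricted members tested, 3 had groups that did not overlap (Crybb1 and Crygs higher in DBA/2J, Crybb3 lower), against 34.5% of tested genes. Their median log2 fold change was 0.75, with 7 estimates above 0 and 1 below, where the median over all tested genes was -0.017 and 47.4% lay above 0. With 3 pools against 2, the smallest p that exact permutation of the pools can give for 1 gene, two-sided, is 0.2. The pools are separate libraries of several mice each, so p-values measure the spread between pools. In bulk tissue, fewer cells of a type and less RNA per cell cannot be told apart.

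**Figure D3:**
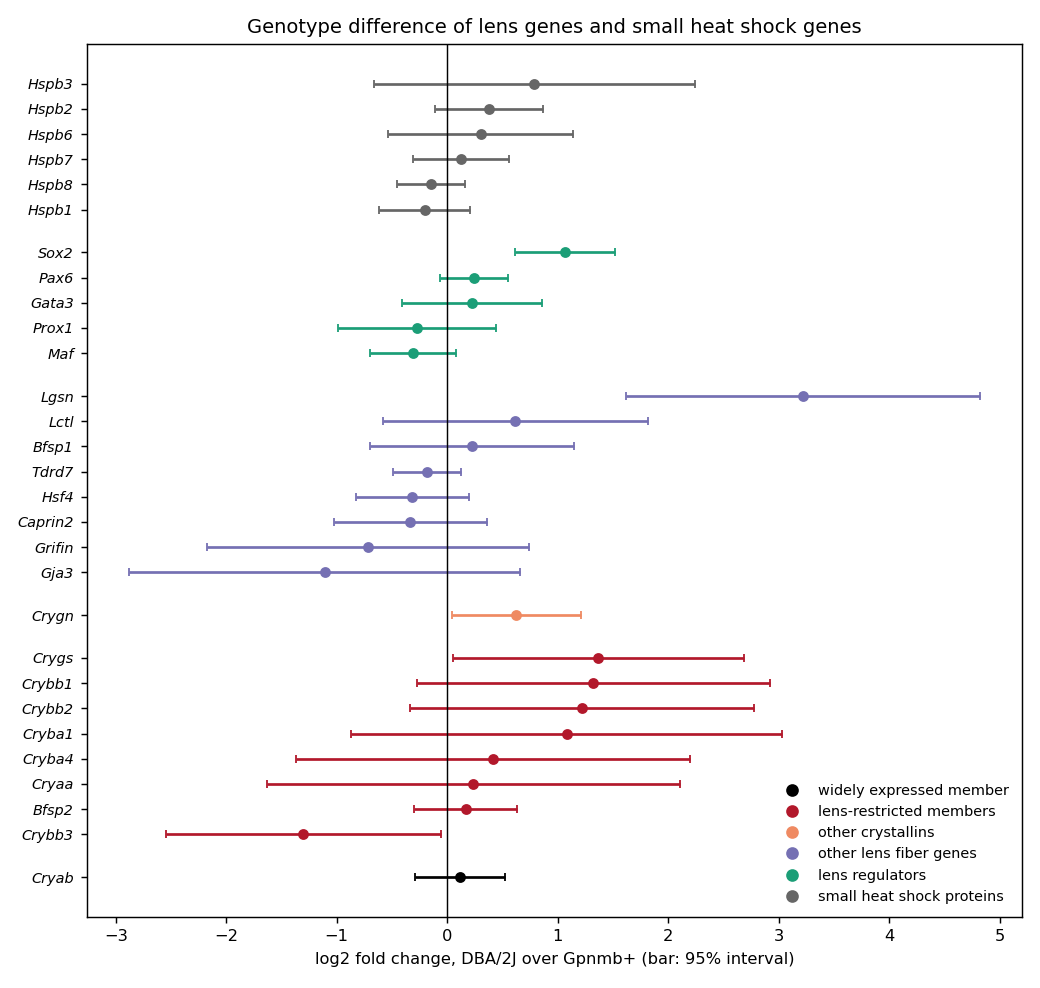
Log2 fold change, DBA/2J over Gpnmb+, with its 95% interval for the 9 tested members and for the tested genes of the other crystallins, other lens fiber genes, lens regulators and small heat shock proteins. The intervals of Crygs, Crybb3, Crygn, Lgsn and Sox2 do not reach 0, and 0 of the genes drawn were called after adjustment.

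Several of the low members differed by severalfold between pools of the same genotype. From Gpnmb+ pool 1 to pool 2, normalized levels differed 5.24-fold for Cryaa (95% counting interval 3.18 to 9.08), 5.60-fold for Cryba1 (2.13 to 18.6) and 4.71-fold for Crybb2 (2.55 to 9.36). Crygs gave 2.49 (0.816 to 9.02), an interval that includes 1. Ratios of at least 2 were found for 5.30% of all tested genes and 14.0% of genes with at most 500 counts over the pools. Other members did not follow, since Crybb3 gave 0.915 (0.426 to 1.95), Cryba4 0.189 (0.0203 to 0.864), Bfsp2 0.740 (0.661 to 0.829) and Cryab 1.38 (1.34 to 1.42). In DBA/2J, pool 3 exceeded pool 1 by 2.75-fold for Cryaa (1.88 to 4.10), 3.42-fold for Cryba1 (1.85 to 6.71) and 1.57-fold for Crybb2 (1.10 to 2.27). Of the 9 lens-restricted members, 8 were higher in pool 3 than in pool 1. Bfsp2 gave 1.34 (1.19 to 1.50). Crybb3 gave 2.24 (0.626 to 9.96), Crygs 1.68 (0.874 to 3.34), Cryba4 1.42 (0.489 to 4.41) and Crybb1 0.554 (0.146 to 1.84), intervals that include 1. For this pair, 3.61% of all tested genes and 10.6% of those with at most 500 counts had ratios of at least 2. DBA/2J pool 2 over pool 1 gave 1.06 for Cryaa, 2.15 for Cryba1 and 1.79 for Crybb2. Summed over the lens-restricted members other than Bfsp2, levels were 3.15, 4.68 and 6.43 CPM in the DBA/2J pools against 1.44 and 4.44 in the Gpnmb+ pools.

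Cryaa, Cryba1 and Crybb2 shared their lowest pool, Gpnmb+ pool 1, but their ratios were not fixed. Cryaa had 0.731, 0.433 and 1.28 counts for each count of Crybb2 with DBA/2J, against 1.46 and 1.63 with Gpnmb+. Cryba1 had between 0.269 and 0.585 counts per Crybb2 count. Bfsp2 stood apart from the low crystallins, with 0.0176 to 0.141 counts of Crybb2 per count of Bfsp2.

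Markers of neighboring tissues differed between the same pools. All 9 photoreceptor markers were higher in Gpnmb+ pool 2 than in pool 1, by 5.09- to 6.81-fold, with a summed level of 373 and 2026 CPM. In DBA/2J pool 3 over pool 1 the same markers ran from 0.849 to 1.09. Skeletal muscle markers were arranged otherwise, with 8 of 8 higher in DBA/2J pool 3 than in pool 1 (1.69- to 2.91-fold) and 8 of 8 lower in Gpnmb+ pool 2 than in pool 1 (ratios 0.418 to 0.819). The 7 markers of nonpigmented ciliary epithelium, the layer that secretes aqueous humor, ran from 1.02 to 1.35 in the first of these ratios and from 0.445 to 0.943 in the second. None of these markers was at 0 in all pools, and their part in the member values was not tested.

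**Figure D4:**
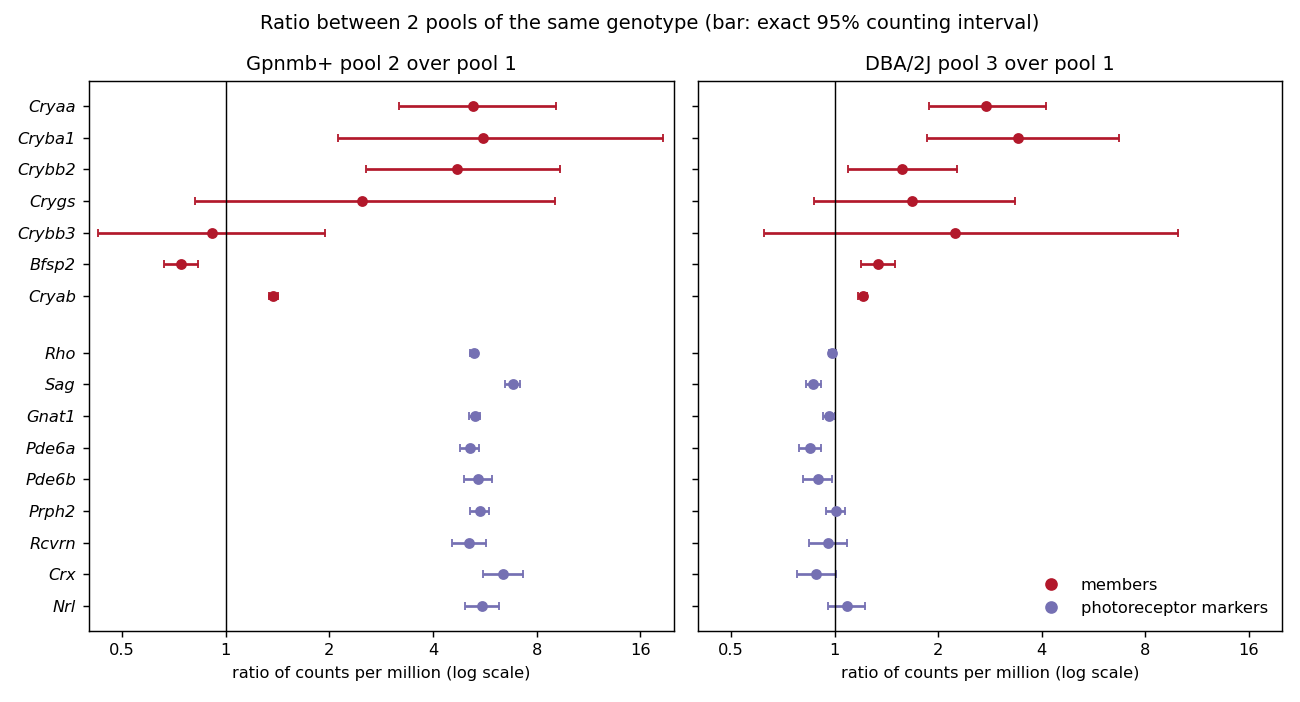
Ratio of CPM between 2 pools of 1 genotype (log scale) for the 7 members with the most counts (red) and 9 photoreceptor markers (violet), with exact 95% counting intervals. Photoreceptor markers sit between 5.09 and 6.81 in Gpnmb+ (left) beside Cryaa, Cryba1 and Crybb2, and between 0.849 and 1.09 in DBA/2J (right), where Cryaa and Cryba1 are at 2.75 and 3.42.

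Marker lists of neighboring tissues were also read between genotypes. Summed levels of the ciliary epithelium markers were 922 to 1172 CPM in DBA/2J and 200 to 356 in Gpnmb+, and 3 of 7 were called higher in DBA/2J (Six6, Col9a1 and Mlc1), against 0.502% of tested genes. Photoreceptor markers summed to 615 to 909 in DBA/2J and 373 to 2026 in Gpnmb+, and muscle markers to 254 to 633 and 172 to 267. Corneal epithelium markers summed to 6715 to 10997 and 10720 to 12356, and 0 were called in these 3 lists. Krt5 and Krt15 were the largest parts of the corneal sum. Krt12 ran from 9.44 to 254 CPM in DBA/2J and from 554 to 1702 in Gpnmb+ (log2 fold change -3.16, edgeR adjusted p = 0.270). In the corneal list 5 estimates were below 0 and 1 above. Retinal glia markers summed to 2008 to 2084 and 1155 to 1398, with Slc1a3 called higher of 4 tested. Most of this sum was Glul (1831 to 1866 and 986 to 1273), and 3 estimates were above 0 and 1 below (Rlbp1, -0.20). Trabecular meshwork markers summed to 996 to 1215 and 1527 to 1553, with Edn3 called lower of 5 tested, against 0.294% of tested genes. The lens marker list, 17 genes that include the 9 lens-restricted members, summed to 18.7 to 25.0 in DBA/2J and 17.5 to 18.7 in Gpnmb+. Most of this sum was Bfsp2, at 11.9 to 15.8 in DBA/2J and 10.8 to 14.5 in Gpnmb+. Without Bfsp2 the lens-restricted members summed to 3.15 to 6.43 in DBA/2J and 1.44 to 4.44 in Gpnmb+. Whether the neighboring tissues in a pool set its crystallin counts was not tested.

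Most crystallins outside the member list were at or near 0. Of 8 further beta- and gamma-crystallin genes, Cryga, Cryge and Crygf had 0 counts in all 5 pools, and Crygb had at most 3 counts in any pool. Crygc, Crygd and Cryba2 had at most 7 counts. The genes Cryga to Crygf are closely similar copies, which uniquely aligned reads can undercount. The exception was Crygn, a divergent member that is also transcribed in the retina, counted 132, 185 and 196 times in DBA/2J against 123 and 128 times in Gpnmb+. Its DBA/2J pools were all above the Gpnmb+ pools when scaled (log2 fold change 0.63, 95% interval 0.04 to 1.21, adjusted p = 0.287, edgeR). Genes that carry the crystallin name but serve as enzymes or belong to other families (Crym, Cryz, Cryzl1, Cryl1, Crybg1, Crybg2 and Crybg3) were all tested, with 0 of 7 called.

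Other genes of the fiber cell ranged from undetected to abundant. Lim2, an integral membrane protein of fiber cells, had 0 counts in all pools. Dnase2b, the nuclease that degrades fiber cell nuclei, had 0 to 6. Of 12 listed genes, 8 were tested, 3 had estimates above 0 and 5 below, and 0 were called. Lgsn, a lens protein of the glutamine synthetase family, was counted 9, 16 and 15 times in DBA/2J against 1 and 2 times in Gpnmb+. Summed over pools this was a ratio of 10.1 (exact 95% counting interval 3.21 to 50.9), and the test across pools did not pass the threshold (adjusted p = 0.0955, edgeR). The fitted value drawn for Lgsn depends on the prior count at these Gpnmb+ counts. Tdrd7, a component of RNA granules, was far above the rest of the list with 3049 to 4533 counts. Its log2 fold change was -0.19 (adjusted p = 0.531, edgeR).

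Regulators of the lens ranged as widely. Foxe3, the forkhead factor of lens epithelium, had 1 count in total, Pitx3 at most 3 and Sox1 at most 2 in any pool. Pax6, which is needed in many tissues of the eye, was counted 15773, 17855 and 19606 times in DBA/2J against 18430 and 15626 times in Gpnmb+ (log2 fold change 0.24, adjusted p = 0.413, edgeR). Maf ranged from 57.7 to 69.0 CPM in DBA/2J and from 66.9 to 92.8 CPM in Gpnmb+, so the groups overlapped (log2 fold change -0.31, adjusted p = 0.411). Sox2, which acts with Pax6 on crystallin enhancers, was counted 165, 156 and 169 times in DBA/2J against 94 and 83 times in Gpnmb+, with no overlap. Its log2 fold change was 1.06 (95% interval 0.61 to 1.52), and it did not pass the threshold (adjusted p = 0.0721). Of 8 regulators, 5 were tested and 0 were called.

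Genes whose pattern over the 5 pools was nearest to the median profile of the lens-restricted members were sought. The search covered 14466 genes with at least 100 counts in their highest pool. The median profile of the members, in log2 units about each gene's mean, was -0.037, 0.22 and 0.64 for DBA/2J and -1.04 and -0.042 for Gpnmb+. It was not a pattern common to the members. Crybb3 had -0.76, -0.73 and 0.12 for DBA/2J and 0.74 and 0.63 for Gpnmb+. Cryba4 had 0.12, -0.013 and 0.53 for DBA/2J and 0.49 and -1.14 for Gpnmb+. Nearest to the median profile, with a root mean square difference of 0.171, was Stab2, a scavenger receptor of sinusoidal endothelium. Stab2 was counted 2292, 2998 and 3283 times in DBA/2J against 1368 and 2073 times in Gpnmb+. Slc38a3, an amino acid transporter, followed at 0.212, and then Vat1l (0.213), Faim2 (0.217), Car2 (0.217), Fam222a (0.220), 1110002E22Rik (0.236) and Synpo2l (0.238). The closest photoreceptor marker was at 0.757. With a prior count of 0.5 in place of 2, 5 of these 8 genes were again among the nearest 8. A likeness over 5 pools is a description and was not tested.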

How the data were processed

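RNA of the iridocorneal region was measured in 3 DBA/2J and 2 Gpnmb+ pools, grouped by the labels. Paired-end reads were trimmed (fastp) and mapped to GRCm39 of Ensembl 110 (STAR) by the authors, who summed reads with a single genomic location over each gene and deposited these counts unnormalized. The strand setting and tool versions were not given in the sources used here, so genes that overlap another are uncertain. Rare transcripts carry wide counting error at 43900661 to 49837758 counts per pool.

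Symbols, positions and canonical transcript lengths came from GENCODE M39 (GRCm39), which held 56323 of 56941 identifiers. Of 92 listed genes 91 were found by symbol, and Chil1 was not analysed here. The lists were further crystallins, other lens fiber genes, lens regulators, small heat shock genes, genes named crystallin outside the lens families, and markers of muscle, photoreceptors, ciliary epithelium, corneal epithelium, retinal glia and trabecular meshwork. Members and lists were chosen with earlier results of these data known. Named genes were the members, the list genes needed to read a member's value, and the 8 genes nearest to the members' median profile of log2 CPM (prior count 2). Crygn, Lgsn, Sox2 and other list genes named for their levels were picked after their values were seen.

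Genes that reached 10 counts in 1 or more pools were tested in R 4.3.3 with edgeR 4.0.16 (TMM, quasi-likelihood test, no covariate). A call needed a Benjamini-Hochberg adjusted p of at most 0.05 over all tested genes and a fold change of at least 1.5. Standard errors and 95% intervals were derived from the quasi-likelihood F statistic. Alternatives were DESeq2 1.42.0, its size factors in edgeR, limma-voom 3.58.1, other count filters, the pool number as a block and each pool left out. The length from all annotated exons was added after seeing the data. Ratios between 2 pools have exact conditional (Clopper-Pearson) intervals. The tests were first tried on simulated data, with a lower dispersion than in these pools. Changes were placed only in genes with more counts than Cryba1, Cryba4, Crybb1, Crybb3 and Crygs. The simulation thus does not show what can be detected at the counts of those members. Proteomics was not analysed here. A listed gene is not reported by name.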

Additional observations from a re-analysis of the deposited data

How the results depend on the processing

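Genes called between genotypes numbered 157 in edgeR, 927 with DESeq2 and 360 without a count filter, and from 1 to 217 with 1 pool left out (6 without DBA/2J pool 1, 1 without pool 2, 17 without pool 3, 217 without Gpnmb+ pool 1 and 2 without pool 2). Other alternatives kept the count within 1.5 times. Of the lens-restricted members, 0 were called under the 11 alternatives, where DESeq2 gave Cryba4, Crybb1 and Crybb3 no adjusted p, and Crybb1 was not tested with filterByExpr or without DBA/2J pool 2. Of 97 member values recomputed, 91 kept their direction and 6 turned. An adjusted p was had for 94, and none of these passed the threshold. Cryaa turned with the pool number as a replicate block (-0.092), without DBA/2J pool 3 (-0.40) and without Gpnmb+ pool 1 (-0.51). The other values that turned were Cryba4 and Bfsp2 without Gpnmb+ pool 2 (-0.31 and -0.033), and Cryab without Gpnmb+ pool 1 (-0.10). With 1 pool left out, values ran from -0.51 to 1.87 for Cryaa, -0.31 to 2.02 for Cryba4, -0.033 to 0.40 for Bfsp2 and -0.10 to 0.36 for Cryab. The cause was not tested beyond the pool removed. With a Gpnmb+ pool left out, 1 library stands for that group and is assumed to vary like the others. The pool numbers are not stated to pair samples. Deviations from the group means correlated at 0.279 for the pools numbered 1 and 0.254 for those numbered 2. With 2 Gpnmb+ pools, the deviations of 1 mirror those of the other, so these 2 correlations are not independent. The replicate block gave 220 calls and a log2 fold change of 0.09 for Cryab. Adjusted p-values of members over all alternatives (edgeR, DESeq2 or limma-voom) ranged from 0.194 (Crybb2) to 0.973 (Bfsp2). Depth limits Mip, Crybb1, Crybb3 and Cryba4 most, where a few reads decide a fold change.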
